A study of Sus scrofa with 2 samples.

Results

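Genes of T cells were compared between the liver and the brain of Rongchang pigs, a Chinese domestic breed, in RNA sequencing of 1 liver and 1 brain library. The genes are CD8B, CD8A, CD4, CD3E, CD3D, CD3G, CD2, CD5, LCK and ZAP70, taken from the deposited count table by symbol, or by protein name where a row carries only a gene number. Of these 10 symbols 9 had a row, in 10 rows of 21817, and after rows of a gene were summed they were 9 of 21419 genes. No row was matched to CD5. They were selected on their liver and brain counts, with the CD8B row chosen because it stands apart, so every value below is a description and none is a test.

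Both tissues were frozen in liquid nitrogen and stored cold, and total RNA was extracted with RNAiso Plus, per the labels. The labels give no age, sex, brain region or treatment, do not tie the tissues to 1 animal or to several, and name the same lane and barcode in the titles of both libraries. The liver library held 31724498 counts and the brain library 23796843. With 1 library per tissue there is no replicate check and no p-value, and all intervals (95%) cover counting error only. Hepatocyte and neuron genes sat on the side of their labelled tissue. All 11 hepatocyte genes with a row were past 4-fold toward liver by the size rule given below, beside 8.25% of all genes with a row. All 6 neuron genes were past it toward brain, beside 10.6%.

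T cells recognise peptides on MHC molecules through the T cell receptor, which signals through the CD3 chains. CD8 and CD4 are coreceptors that bind MHC class I and class II and bring the kinase LCK to the receptor, where LCK phosphorylates the CD3 chains and ZAP70 is recruited. CD8 occurs as a pair of CD8A chains or as a CD8A-CD8B pair, and CD8B depends on CD8A to reach the cell surface, as known from mouse and human cells. Liver holds resident and circulating T cells, while healthy brain tissue holds few. In whole tissue, fewer cells of a type and less RNA per cell cannot be told apart.

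CD8B, the beta chain of the CD8 coreceptor, had 43811 counts in liver and 167 in brain. Its scaled level was 2028 CPM in liver and 4.78 CPM in brain, where CPM are counts per 1000000 scaled with TMM, a method that centres the bulk of genes between libraries. The liver level was 424-fold that of brain (interval 365 to 497), and 197-fold with plain library size (169 to 230). By number of counts CD8B ranked 67 among all genes in liver and 10401 in brain. It took 0.138% of all liver counts (Wilson interval 0.137 to 0.139) and 0.000702% of brain counts (0.000603 to 0.000817).

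CD8A, the alpha chain that CD8B pairs with, had 15 counts in liver and 19 in brain. That is 0.694 CPM in liver and 0.544 CPM in brain, with a fold of 1.28 (0.604 to 2.65), an interval that spans both directions. With plain library size the fold was 0.592 (0.280 to 1.23). At this depth a difference in CD8A between the tissues was not detectable, while the CD8B row differed by more than 2 orders of magnitude.

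**Figure D1:**
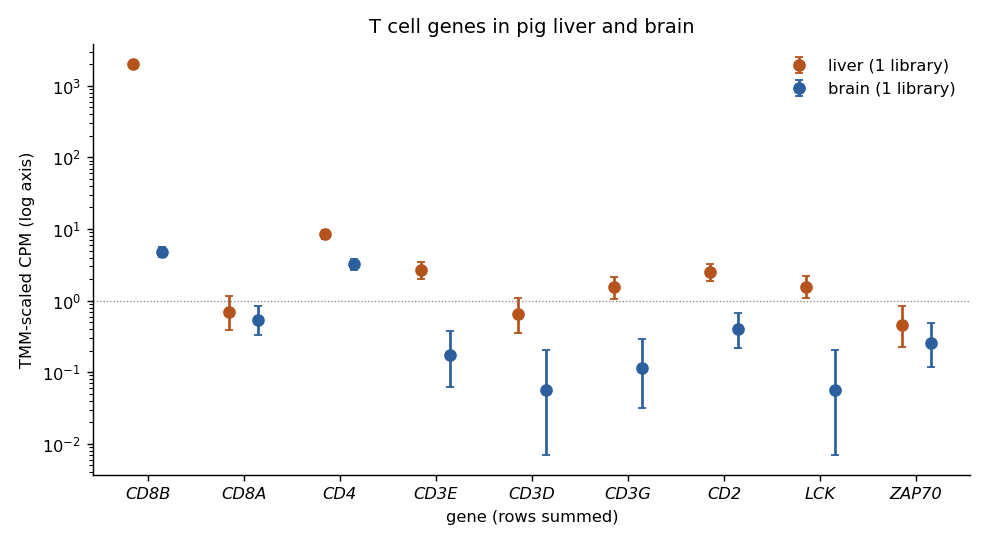
Scaled level of each T cell gene (CPM, log axis) in the liver library, left of each pair, and the brain library, right, with exact 95% Poisson intervals for counting error; the dotted line marks 1 CPM. CD8B in liver, at 2028 CPM, lies far above the other 8 genes, which lie between 0.463 and 8.47 CPM in liver.

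The CD3 chains, which carry the signalling motifs of the receptor complex, were scarce in both tissues and higher in liver. CD3E had 57 counts in liver and 6 in brain, a fold of 15.4 (6.64 to 43.6). CD3G had 33 counts in liver and 4 in brain, a fold of 13.3 (4.75 to 51.9). CD3D had 14 counts in liver and 2 in brain, a fold of 11.3 (2.60 to 103). The 3 chains had the same order in both libraries, with CD3E highest and CD3D lowest by counts, and their fold intervals overlap. Summed, they had 104 counts in liver and 12 in brain, 14.0-fold apart (7.69 to 28.0), and 6.50-fold with plain library size (3.57 to 12.99). Their 3 rows carry consecutive gene numbers in the table.

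LCK, the kinase that coreceptors hold at the receptor, had 34 counts in liver and 2 in brain, a fold of 27.5 (7.05 to 236). CD2, an adhesion molecule of T and NK cells, had 54 counts in liver and 14 in brain, a fold of 6.24 (3.42 to 12.2). ZAP70, the kinase recruited to phosphorylated CD3 chains, is represented by a row whose product is named ZAP-70-like. It had 10 counts in liver and 9 in brain, a fold of 1.80 (0.656 to 4.999), so the direction was not resolved. With plain library size the ZAP70 fold was 0.833 (0.304 to 2.32).

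CD4, the coreceptor for MHC class II, had 2 rows. The row under its symbol had 177 counts in liver and 60 in brain, a fold of 4.77 (3.54 to 6.51). A second row, named CD4-like and placed on an unplaced scaffold, had 6 counts in liver and 52 in brain, and so ran in the opposite direction with a fold of 0.187 (0.0655 to 0.434). Summed, CD4 had 183 counts in liver and 112 in brain, a fold of 2.64 (2.08 to 3.37), and 1.23 with plain library size (0.964 to 1.56). In liver the second row held few of the CD4 counts, and in brain it held nearly as many as the first. Whether these reads belong to CD4 was not tested. Macrophages also make CD4 in human and rat.

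By the size rule for the whole table, a log2 ratio of at least 2 between CPM values raised by a pseudocount of 1, CD8B was past 4-fold toward liver and the other 8 genes were not. The rule called 11.3% of the 15561 genes at 1 CPM or more in a library toward liver, and 14.6% toward brain, where 0 of the T cell genes were called. Of the 9 genes, 6 reached 1 CPM in a library, which takes 21.6 counts in liver and 34.9 in brain. CD8A, CD3D and ZAP70 stayed under it. The log2 ratios of the 8 genes without CD8B ran between 0.13 for CD8A and 1.63 for CD3E. Their median was 1.18, beside a median of -0.04 over all genes, while CD8B was at 8.46.

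The pseudocount weighs on genes this scarce, so folds without it were also counted, for genes with at least 20 counts over both libraries, a choice made after the data were seen. CD3E, CD3G, CD2, LCK and CD8B were then past 4-fold toward liver, 5 of the 7 genes with enough counts, beside 14.8% of the 16646 genes tested. With plain library size CD2 left that group and 4 remained, beside 8.34% of genes. CD3E, CD3G, CD2 and LCK had under 20 counts in brain and met the count filter only with their liver counts. The shares of T cell genes past 4-fold are therefore partly set by the filter. None of the 7 was past 4-fold toward brain, where this rule called 21.6% of genes, and 34.0% with plain library size. All 8 genes without CD8B had the higher scaled level in liver, while the median log2 ratio over all genes was -0.04. With plain library size, 6 of the 8 were higher in liver and CD8A and ZAP70 in brain, beside an all-gene median of -0.51. The fold intervals of CD8A and ZAP70 spanned both directions with either scaling. Leaving out the 50 highest genes put CD8A higher in brain (log2 ratio -0.04), beside an all-gene median of -0.17. The share of all genes higher in liver is not given here, so these counts by direction have no direct background.

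Ratios between genes within a library do not depend on scaling. In liver there were 2921 CD8B counts per CD8A count (1771 to 5219), and in brain 8.79 (5.45 to 14.97). Per CD3 chain count, with the chains summed, CD8B had 421 counts in liver (348 to 516) and 13.9 in brain (7.76 to 27.5). CD8B alone made up 99.1% of the counts of the 9 genes in liver (99.0 to 99.2) and 49.9% in brain (44.5 to 55.2). All 3 measures rest on the CD8B count, for which the row was chosen. The gap between liver and brain in them is therefore not independent of that choice.

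Counts of different genes also depend on length, and the length deposited with each row is read here as the span of the gene model in that build, introns included. Some rows are shorter than their genes, such as CD163 at 792 bp, so values per kb are approximate. The CD8B row has a length of 102148 bp, against 3678 to 26331 bp for the other 9 rows and 7002 bp for CD8A. Of all rows, 8.84% are longer, and the median length is 16573 bp. Per kb of deposited length CD8B had 429 counts in liver and 1.63 in brain. The other 9 rows lay between 0.616 and 6.72 counts per kb in liver, all below CD8B. In brain they lay between 0.212 and 5.98 counts per kb, 6 below CD8B and 3 above it, the 3 being CD8A at 2.71 and the 2 CD4 rows at 2.28 and 5.98. So per kb of this length, CD8B exceeded CD8A by 200-fold in liver and was 0.602 times CD8A in brain. The length includes introns, so these ratios are not corrected for transcript length. By counts, CD8B was 8.79 times CD8A in brain (5.45 to 14.97), so the direction in brain turns on the length used.

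**Figure D2:**
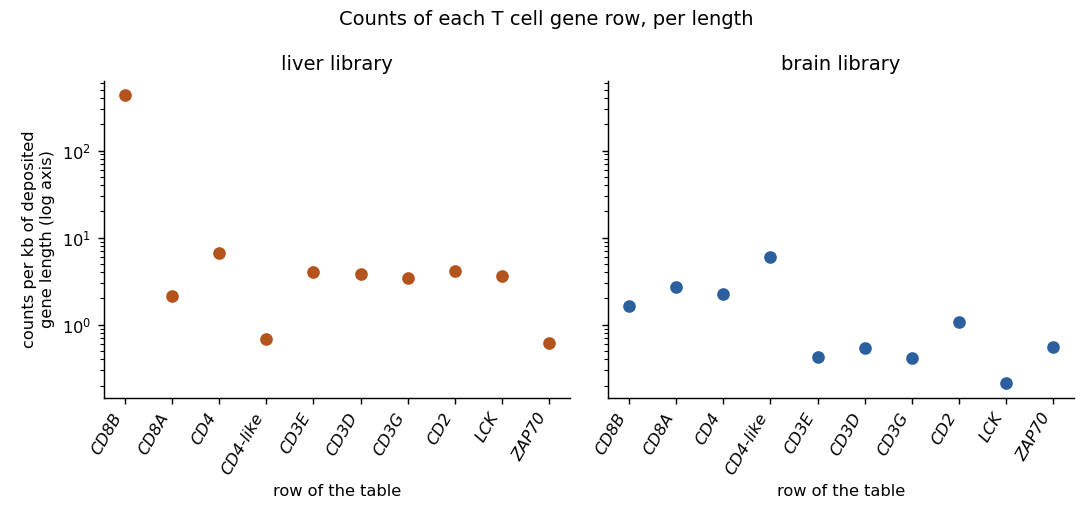
Counts per kb of deposited gene length (log axis) for each of the 10 rows of T cell genes, liver library on the left and brain library on the right. In liver CD8B lies at 429 counts per kb and the other rows at 6.72 or below, while in brain CD8B, at 1.63, lies within the range of the others. The lengths include introns, so the values are not corrected for transcript length.

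Among the other members in liver, CD3E, CD3D and CD3G had 4.001, 3.81 and 3.44 counts per kb, CD2 had 4.10 and LCK had 3.61. The CD4 row under its symbol was higher, at 6.72, and CD8A, at 2.14, the CD4-like row, at 0.690, and the ZAP-70-like row, at 0.616, were lower. In brain the CD3 chains had 0.421, 0.544 and 0.417 counts per kb, CD2 had 1.06, LCK had 0.212 and the ZAP-70-like row had 0.555. The order changed for CD8A, which was below each CD3 chain per kb in liver and above each of them in brain. In liver this rests on few counts, 15 for CD8A and 14 for CD3D, and no interval was computed per kb. By counts, CD3E had 3.80 counts per CD8A count in liver (2.12 to 7.23) and 0.316 in brain (0.103 to 0.822).

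CD8B lay among abundant liver genes when all genes were placed by their levels in the 2 libraries. The 10 named genes nearest to it, by Euclidean distance in log2(CPM + 1) over the 2 libraries, were FBP1, CP, ASS1, CD5L, F10, FMO1, C9, ACSM4, AZGP1 and OTC, at distances of 0.66 to 1.27. FBP1, an enzyme of gluconeogenesis, had 27673 counts in liver and 171 in brain. CP, which encodes ceruloplasmin, had 64357 in liver and 286 in brain. CD5L, a secreted macrophage protein whose name resembles CD5 but which is a different gene, had 23035 in liver and 121 in brain. The 5 named genes nearest to CD3E were PIF1, PAQR7, BATF, EME1 and MYD88, at distances of 0.04 to 0.10, all with 52 to 62 counts in liver and 4 to 7 in brain. Likeness over 2 libraries fixes only a gene's level in each.

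**Figure D3:**
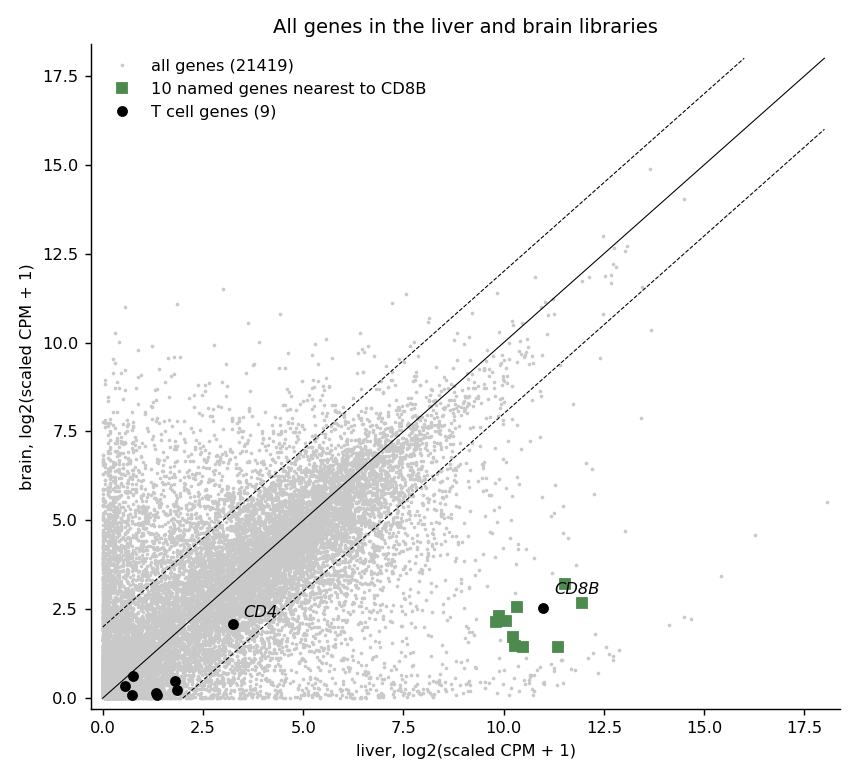
Level of each of 21419 genes as log2(scaled CPM + 1) in liver (x axis) and brain (y axis), with the 9 T cell genes as black circles and the 10 named genes nearest to CD8B as green squares; the solid line marks equal levels and the dashed lines a 4-fold difference. CD8B lies beyond the 4-fold line among abundant liver genes, and the other 8 T cell genes lie near the origin, inside it.

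Of all genes, 72 had a higher log2 ratio toward liver than CD8B. Their median deposited length was 14122 bp, and 1 of them was longer than the CD8B row. The brain count of CD8B was 0.381% of its liver count, against 0.0262% for ALB, which encodes serum albumin. Among 108 genes with at least 20000 liver counts that were past 4-fold toward liver, the median of this percentage was 0.224, and 57 genes lay below CD8B. The percentage for CD8B lay near the middle of those genes. CD8B is among them through the liver count for which the row was chosen, so its place there is not independent of that choice.

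The rows on either side of CD8B did not share its level. In the table's own gene numbers CD8B, numbered 5686, stands between SMYD1, a muscle methyltransferase, and RNF103, a ubiquitin ligase. SMYD1 had 8 counts in liver and 1 in brain, and the row under the symbol RNF103 had 18 in liver and 34 in brain. Another row, named E3 ubiquitin-protein ligase RNF103-like, had far more, with 2180 in liver and 2243 in brain. KRCC1 had 1477 counts in liver and 459 in brain, a log2 ratio of 2.30, and of 1.23 with plain library size. A row named threonine synthase-like 2-like had 479 counts in liver and 110 in brain. RMND5A had 309 in liver and 284 in brain. The 2 numbers after CD8B carry no row, as do 16.8% of all gene numbers up to the highest in the table.

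In the order of genes that RefSeq gives for Sscrofa11.1, which is not the build of the counts and is used for order alone, the protein-coding genes on 1 side of CD8B are KRCC1, SMYD1 and FABP1, and those on the other side are CD8A, RMND5A and RNF103. FABP1 encodes the liver fatty acid binding protein, an abundant protein of hepatocytes. No row was matched to FABP1 by symbol, gene number, accession or synonym, and its part in the CD8B counts was not tested. Product names were searched for the 10 T cell genes alone, and 6978 rows stayed unnamed. A FABP1 row known only by its product could thus have been missed. The deposited numbers put RNF103 and RMND5A between CD8B and CD8A, whereas the newer assembly puts CD8A next to CD8B. In the deposited numbers the RNF103-like row stands after CD8A. Of the 16 protein-coding genes up to 8 places from CD8B in the newer assembly, 13 had a row matched by symbol, gene number, accession or synonym. Their highest liver count was 2459, in IMMT. THNSL2 was not matched, and the row named threonine synthase-like 2-like was not counted for it. Nor was the RNF103-like row counted for RNF103.

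**Figure D4:**
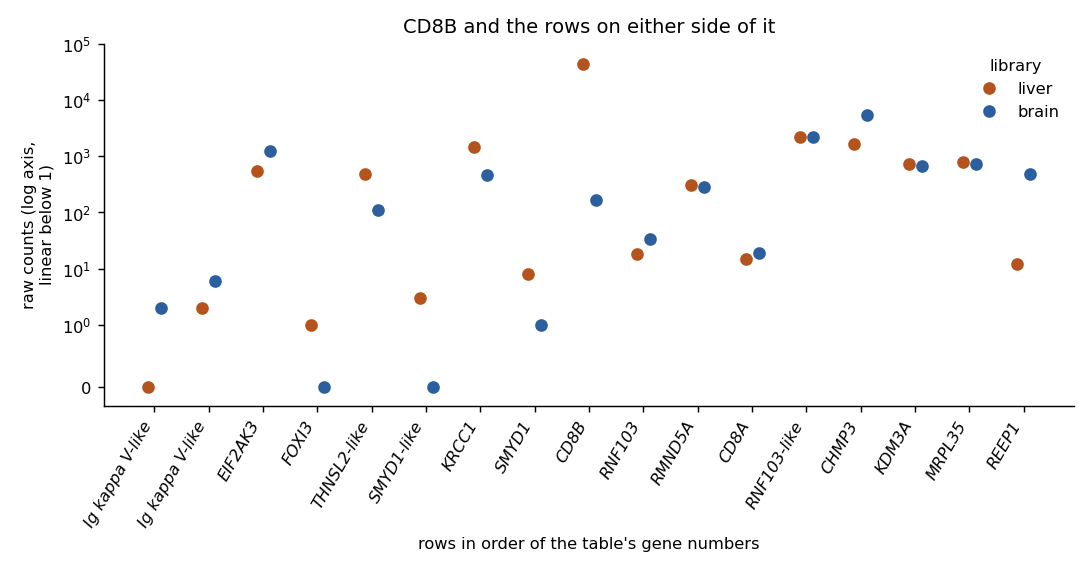
Raw counts (log axis, linear below 1) of CD8B and the 8 rows on either side of it in the order of the table's gene numbers, with liver left of brain in each pair. CD8B has 43811 liver counts, and the neighbouring rows have at most 2180 in liver.

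Other genes of T cells, from a list of 31 with 25 rows, gave mixed directions. Past 4-fold there were 0 toward liver and 2 toward brain, CD247 and LEF1, beside 8.25% of all genes with a row toward liver and 10.6% toward brain. CD247, the zeta chain of the CD3 complex, had 242 counts in liver and 2091 in brain, a log2 ratio of -2.32. It thus ran against CD3E, CD3D and CD3G, with which its protein is assembled, and had the most counts of the list in both libraries. LEF1, a transcription factor of T cells that is also known from the thalamus, had 75 counts in liver and 651 in brain. The list's median was 0.02, and -0.13 with plain library size, beside a median of all genes that moved by -0.47 with that scaling and by -0.13 without the 50 highest genes.

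Without a pseudocount, 3 of the 15 genes with at least 20 counts were past 4-fold toward liver and 3 toward brain, beside 14.8% and 21.6% of all genes, and 3 toward liver and 5 toward brain with plain library size, beside 8.34% and 34.0%. Those in liver were CD28, the costimulatory receptor of T cells, with 46 counts in liver and 1 in brain, UBASH3A, with 28 in liver and 2 in brain, and TBX21, with 23 in liver and 4 in brain. BCL11B, a transcription factor of T cells and of neurons, joined CD247 and LEF1 in brain, with 9 counts in liver and 103 in brain. CD28, UBASH3A, TBX21 and BCL11B were chosen after their values were seen. CD28, UBASH3A and TBX21 met the count filter only with their liver counts, and BCL11B only with its brain counts. Of the 31 symbols, 6 had no row under that symbol, among them IL7R and CD40LG.

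The partners of the receptor in signalling also act in other cells, and 1 of 21 with a row was past 4-fold toward liver and 2 toward brain, beside the same 8.25% and 10.6% of all genes with a row. PTPRC, which encodes the leukocyte phosphatase CD45, had 1053 counts in liver and 261 in brain, a log2 ratio of 2.55, and 1.51 with plain library size. FYN, a kinase of the LCK family that neurons also use, had 321 in liver and 5452 in brain. RASGRP1, an activator of Ras, had 96 in liver and 2385 in brain. The adaptors GRB2 and SOS1, found in most cells, were at -0.35 and -0.34. The median of the list was 0.07, and -0.91 with plain library size, which put 0 past 4-fold toward liver and 6 toward brain, beside 4.44% and 17.8% of all genes with a row.

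Markers of other leukocytes give the setting of these counts. Of 14 NK and cytotoxic cell genes 0 were past 4-fold toward either tissue, beside 8.25% of all genes with a row toward liver and 10.6% toward brain, with summed levels of 16.2 CPM in liver and 4.72 CPM in brain. The members with the most counts were CTSW, a protease of cytotoxic cells, with 105 counts in liver and 24 in brain, the chemokine CCL5, with 95 in liver and 15 in brain, and NKG7, with 57 in liver and 70 in brain. Without a pseudocount CTSW, CCL5 and KLRK1, the last with 47 counts in liver and 4 in brain, were past 4-fold toward liver, 3 of the 5 with at least 20 counts, beside 14.8% of all genes, and plain library size left 2, beside 8.34%. KLRK1 was chosen after its values were seen. CCL5 and KLRK1 met the count filter only with their liver counts. KLRD1 was at 0 counts in liver. Of 9 B and plasma cell genes 0 passed 4-fold, beside the same shares, with summed levels of 4.86 CPM in liver and 9.44 CPM in brain, and CD79B and BLK were at 0 counts in brain. Plain library size put 1 toward brain, PAX5, beside 17.8% of all genes with a row. Without a pseudocount 1 of the 4 with at least 20 counts was past 4-fold toward brain, PAX5, beside 21.6% of all genes. PAX5 led that list with 27 counts in liver and 179 in brain, followed by JCHAIN with 26 in liver and 92 in brain and CR2 with 11 in liver and 30 in brain.

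Genes of leukocytes in general and of macrophages had higher summed levels than the T cell genes other than CD8B. Of 10 pan-leukocyte genes, 3 were past 4-fold toward liver, PTPRC, LCP1 and ITGB2, and 0 toward brain, beside 8.25% and 10.6% of all genes with a row. Their summed level was 393 CPM in liver and 188 CPM in brain. Their log2 ratios had a median of 0.86, which plain library size took to -0.03. That scaling called 0 toward liver and 1 toward brain, beside 4.44% and 17.8% of all genes with a row. LCP1, an actin-bundling protein, had 2526 counts in liver and 595 in brain, while LAPTM5 had 1393 in liver and 1964 in brain and ARHGDIB had 1021 in liver and 1369 in brain. Of 13 macrophage and Kupffer cell genes, 8 were past 4-fold toward liver and 2 toward brain, beside 8.25% and 10.6% of all genes. With plain library size it was 6 and 2, beside 4.44% and 17.8%. Their summed level was 2371 CPM in liver and 173 CPM in brain. Those in liver included CD5L, CD14 with 9387 counts in liver and 226 in brain, C1QA with 4476 in liver and 753 in brain, C1QC with 3392 in liver and 711 in brain, MRC1 with 4825 in liver and 177 in brain and CD163 with 2039 in liver and 20 in brain. Those in brain were the microglia genes P2RY12 and TREM2, and TREM2 was at 0 counts in liver. The 8 T cell genes without CD8B had a summed level of 18.52 CPM in liver and 4.81 CPM in brain. The part of macrophages in the CD4 counts was not tested.

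**Figure D5:**
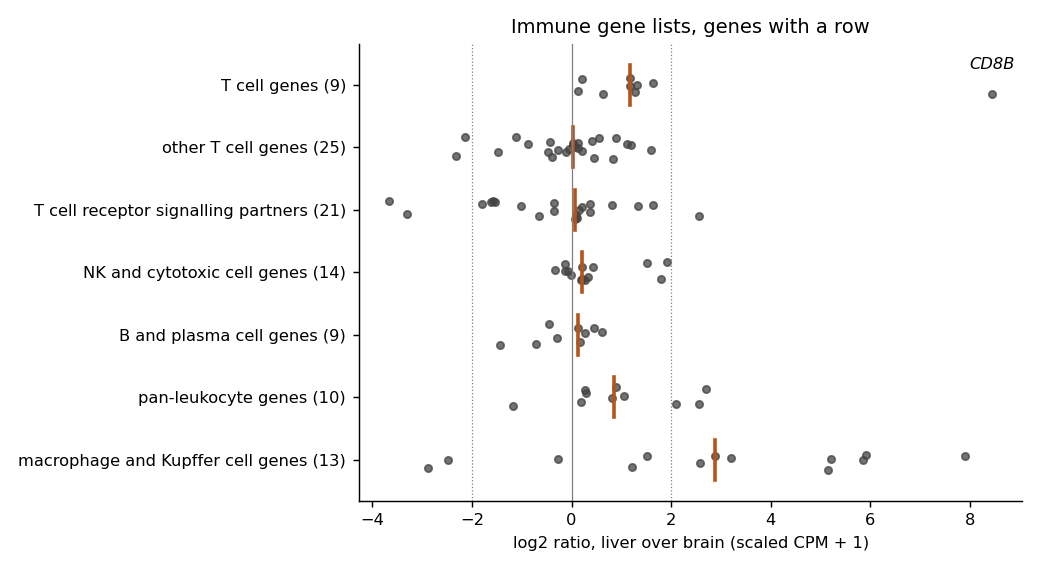
Log2 ratio, liver over brain, of CPM raised by a pseudocount of 1, for the 9 T cell genes and 6 lists of immune genes, with 1 point per gene with a row (vertical jitter is arbitrary); orange bars are medians and dotted lines mark a 4-fold difference. CD8B, at 8.46, lies apart from the other 8 T cell genes, which lie between 0.13 and 1.63.

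MHC genes, whose products the coreceptors bind, were mostly on the liver side. SLA-1, a class I gene read by CD8, had 5487 counts in liver and 1481 in brain, and SLA-DRA, a class II gene read by CD4, had 907 in liver and 93 in brain. Of 10 genes of ligands and partners with a row, 6 were past 4-fold toward liver, SLA-1, SLA-3, SLA-DRA, SLA-DQA1, SLA-DRB1 and SLA-DQB1, and 0 toward brain, beside 8.25% and 10.6% of all genes with a row. SLA-3 had 2584 counts in liver and 814 in brain, and SLA-DQA1 had 441 in liver and 41 in brain. SLA-DQB1 had 392 counts in liver and 96 in brain, and SLA-DRB1 had 146 in liver and 14 in brain. Plain library size left 2, beside 4.44%, and put SLA-2, a class I gene, at a log2 ratio of -0.32, against 0.72 with TMM. Reads may be shared among the SLA genes, which are near-identical in places.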

How the data were processed

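RNA of 1 liver and 1 brain library was analysed from the authors' deposited table of raw counts for each gene, whose whole-number values have different totals in the 2 columns. Reads were aligned with TopHat to Sscrofa10.2, also named susScr3, per the submitters' processing notes. Which program counted reads, and with which strand setting, is not given in the sources used here, so reads of overlapping, antisense or near-identical genes may be shared. Most deposited gene lengths, in bp, are too long for transcripts and were read as the span of the gene model, though some rows are shorter than their genes. Gene coordinates were not used.

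Names came from the table for 7829 rows. A RefSeq table of Sscrofa11.1 renamed 371 rows by accession or synonym and named 6594 by gene number and 43 by accession. Another 2 rows were taken by product name, and 6978 stayed unnamed but entered all totals. Rows of a gene were summed. For scaling, TMM factors came from edgeR 4.0.16 under R 4.3.3, and no test was run. Log2 ratios are liver over brain of scaled CPM plus 1, and 4-fold is the size rule for genes at 1 CPM or more in a library. Folds of single genes carry no pseudocount and have exact conditional binomial 95% intervals, computed with scipy 1.17.1. PCR reads without molecular identifiers are not independent molecules, so intervals cover counting error only. The code was tested on simulated counts.

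The members, the 9 further lists and the naming rule were chosen with earlier results of these data known. The rule names all members, and from each list the members at 4-fold or more (at most 6) and the 3 with the most counts. It also takes the genes nearest to CD8B or CD3E and those near CD8B in gene order. The hepatocyte and neuron lists are given as counts alone, and 1 gene that the rule takes is not reported here. Alternatives were other scalings (DESeq2 1.42.0 size factors, plain library size, and library size without the 50 highest genes of either library), other pseudocounts, filters and folds, and other ways to join rows.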

Additional observations from a re-analysis of the deposited data

How the results depend on the processing

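Median-of-ratios scaling, the highest row per gene and rows matched by symbol alone left each listed value inside its interval, or each count within 1.5 times. The CD8B log2 ratio of 8.46 was 7.43 with plain library size, 8.03 without the 50 highest genes, 8.70 with a pseudocount of 0.1 and 7.70 with 5, toward liver in each. The count of T cell genes past 4-fold toward liver was 1, and 5 with a pseudocount of 0.1, 6 at 2-fold and 5 without a pseudocount. Per kb of deposited length, introns included, the ratio of CD8B to CD8A was 200.2 in liver and 0.602 in brain. That of CD8B to the CD3 chains in liver was 38.1 on the same scale. The median of the 8 genes without CD8B was 0.59 with plain library size, 2.31 with a pseudocount of 0.1 and 0.37 with 5. For the other T cell genes, the count in liver was 3 with a pseudocount of 0.1, at 2-fold and without a pseudocount, and that in brain was 1 with a pseudocount of 5, 4 at 2-fold and 0 at 8-fold. Over all genes, 1766 were past 4-fold toward liver, against 952 with plain library size, 1115 with a pseudocount of 5, 3803 at 2-fold and 886 at 8-fold. In brain it was 2276, against 3817 with plain library size, 1230 with a pseudocount of 5, 4280 at 2-fold, 1330 at 8-fold and 3590 without a pseudocount. The moves at other folds and pseudocounts follow from those settings. Plain library size, and library size without the 50 highest genes, shift every ratio toward brain. The cause of any other move was not tested. Counts per kb of coding length were not run. No paired analysis was possible because each tissue has 1 library. Depth limits CD8A, CD3D and ZAP70, whose intervals are wide. It also limits the folds of CD3E, CD3G and LCK, which rest on 6, 4 and 2 brain counts and have wide intervals.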

Other observations

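Rows named for T cell receptor chains or their adaptors, chosen after the data were seen, also ran in both directions. A row named T-cell receptor beta chain ANA 11-like had 29 counts in liver and 229 in brain, a log2 ratio of -1.69. Of 2 rows named T-cell receptor beta chain T17T-22-like, 1 had 32 counts in liver and 31 in brain and the other 11 in liver and 3 in brain. A row named T-cell receptor-associated transmembrane adapter 1-like, which was not matched to the symbol TRAT1, had 20 counts in liver and 3 in brain, a fold of 10.8 (3.20 to 56.7). The brain counts of the first of these rows exceeded the 12 counts of the 3 CD3 chains summed in that library.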
